A study of Mus musculus with 24 samples.

Results

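The glutamate receptors and auxiliary subunits described here are 35 named mouse genes: the AMPA receptor subunits Gria1, Gria2, Gria3 and Gria4, the NMDA receptor subunits Grin1, Grin2a, Grin2b, Grin2c, Grin2d and Grin3a, the kainate receptor subunits Grik1, Grik2, Grik3, Grik4 and Grik5, the delta receptor Grid1, the metabotropic receptors Grm2, Grm3, Grm4, Grm5, Grm7 and Grm8, the transmembrane AMPA receptor regulatory proteins (TARPs) Cacng2, Cacng3, Cacng4, Cacng5, Cacng7 and Cacng8, the cornichons Cnih2 and Cnih3, the kainate receptor partners Neto1 and Neto2, the AMPA receptor partners Gsg1l and Shisa9, and the scaffold Dlg4. A gene was kept if it had at least 10 counts in at least 3 libraries. All 35 of the 35 named genes were kept, out of 37621 gene entries in the count tables, of which 17915 met the same count rule. Each of the 35 had at least 10 counts in all 24 libraries, so no member was lost to the count filter.

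The study sequenced total RNA after removal of ribosomal RNA from dissected brain regions of C57BL/6 mice. The groups were cerebellum, cortex, hippocampus and olfactory bulb of mice labelled Cdr1as knockout (KO), and the same 4 regions of wild-type mice (WT), with 3 libraries in each of the 8 groups. Every region was taken from mice of the same strain, and the labels name no treatment, age or sex and do not say whether the libraries of a group came from separate animals, so the p-values measure the spread between libraries, which may be technical. The question of the knockout comparison is what the loss of this circular RNA locus does to the brain transcriptome, here for the genes of glutamate reception.

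Cdr1as had 0 to 13 counts in the 12 KO libraries and 5617 to 130878 counts in the 12 WT libraries. The gene counts of a library summed to between 5.18 M and 30.46 M reads (median 16.9 M). The libraries below 8 M were cerebellum KO replicate 1 (6.5 M), olfactory bulb KO replicate 2 (5.18 M) and olfactory bulb WT replicate 1 (7.4 M). The 35 genes together took 0.477% to 0.798% of the gene counts of a library. The cerebellum libraries matched their label. Summed over 8 cerebellar granule cell genes, cerebellum had 5488 to 5707 CPM (counts scaled to a common library total) in KO and 5737 to 5909 CPM in WT. No other group passed 290 CPM. By the regional edgeR test described below, all 8 excitatory forebrain neuron markers were higher in cortex of both genotypes. Of 8 striatum and thalamus markers, 5 were higher and 0 lower in WT cortex, and 5 higher and 1 lower in KO cortex. Of all genes, 19.0% were higher and 14.5% lower in WT cortex, and 16.4% and 10.7% in KO cortex. The part of striatal or thalamic tissue in the cortical values was not tested. The share of reads in no gene ran from 20.3% to 62.9% and varied most in cortex, where replicate 2 of each genotype had the highest share (53.7% in KO and 56.2% in WT).

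Glutamate is the main excitatory transmitter of the brain. AMPA, NMDA and kainate receptors are tetrameric ion channels: AMPA receptors carry most of the fast current, NMDA receptors need the obligatory subunit encoded by Grin1 and pass calcium when glutamate meets a depolarised membrane, and kainate receptors act on both sides of the synapse. Metabotropic receptors signal through G proteins, Grm5 through phospholipase C and the other members studied here through inhibition of adenylyl cyclase. TARPs, cornichons, Gsg1l and Shisa9 bind AMPA receptors and set their trafficking and gating, Neto proteins do so for kainate receptors, and Dlg4 encodes PSD-95, which anchors these complexes in the postsynaptic density. Which subunits a neuron expresses sets the conductance, kinetics and calcium permeability of its synapses.

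The circular RNA Cdr1as, which is abundant in neurons, binds miR-7 at many places along its length and is cut at a site for miR-671, so the mature forms of these microRNAs are shown with the bases that a target has to match. The sequences are from RefSeq (GRCm38.p6), 5′ to 3′, with the seed (bases 2 to 8) in capitals. miR-7a and miR-7b share their seed and differ in the tail, and miR-671-5p has a different seed.
miR-7a-5p: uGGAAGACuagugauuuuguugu
miR-7b-5p: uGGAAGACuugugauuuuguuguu
miR-671-5p: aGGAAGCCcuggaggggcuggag

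The letters that pair with the miR-7 seed, GTCTTCC, were searched in the longest 3′ UTR that GENCODE M21 annotates for each gene, on the sense strand. They were found in 5 of the 35 members (14.3%), against 12% of the 20954 genes with a 3′ UTR, and the members' UTRs were longer (median 2423 bases, against 966 over all genes). The matching letters for miR-671-5p, GGCTTCC, were found in 8 of the 35 members (22.9%), against 12% of all genes. The miR-7 matches in the members are shown with up to 14 bases before and 4 after them, with the match in capitals. Those of Cacng7 and the second of Grin2b are followed by an A.
Grin2a, UTR base 637: ctactttcattgtaGTCTTCCccca
Grin2a, UTR base 3204: gcccctatggctctGTCTTCCtgca
Grin2b, UTR base 2671: catctctgaaacctGTCTTCCtgcg
Grin2b, UTR base 4206: gtaccactcacccaGTCTTCCatgg
Grin2b, UTR base 8926: cctcttgttgctctGTCTTCCtgca
Grik2, UTR base 4978: aataatacttcattGTCTTCCtttc
Cacng7, UTR base 833: cccccaaaacctccGTCTTCCattt
Dlg4, UTR base 2841: gcaactgaaccaggGTCTTCCgaga

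Promoters were looked at for the 22 members with an entry in the RefSeq promoter table, each from 250 bases before to 50 after the annotated start. The GC box core GGGCGG, on either strand, was found in 15 of the 22 (68.2%), against 38.2% of the 27025 genes in the table, and the members' promoters were richer in G and C (median 63.3%, against 52.7%). The promoters of Grin2c and Cnih2 are shown because these genes stood out in opposite regions, Grin2c in cerebellum and Cnih2 in hippocampus. Each has 3 matches, in capitals: as GGGCGG in Grin2c, where the last 2 overlap by 1 base, and as the complement CCGCCC in Cnih2.
Grin2c, chr11:115267194-115267493, minus strand, GRCm38.p6: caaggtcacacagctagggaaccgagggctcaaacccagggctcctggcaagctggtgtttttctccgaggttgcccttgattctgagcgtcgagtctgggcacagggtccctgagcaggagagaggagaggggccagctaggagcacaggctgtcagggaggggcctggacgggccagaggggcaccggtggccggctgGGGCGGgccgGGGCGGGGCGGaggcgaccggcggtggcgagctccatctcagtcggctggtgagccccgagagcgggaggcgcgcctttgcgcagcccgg
Cnih2, chr19:5098472-5098771, minus strand, GRCm38.p6: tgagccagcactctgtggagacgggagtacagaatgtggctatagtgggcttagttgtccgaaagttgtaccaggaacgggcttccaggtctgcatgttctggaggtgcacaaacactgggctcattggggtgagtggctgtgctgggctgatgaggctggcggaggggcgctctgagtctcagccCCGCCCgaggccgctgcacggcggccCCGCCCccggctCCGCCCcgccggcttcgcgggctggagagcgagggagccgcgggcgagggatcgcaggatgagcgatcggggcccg

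Levels are given as CPM, scaled over all 24 libraries by the trimmed mean of M values (TMM), per kilobase (kb) of the gene's exons, so that genes of different length can be set side by side. Across the WT regions the receptor genes differed far more than between genotypes. In edgeR's quasi-likelihood test with Benjamini-Hochberg adjustment over all genes tested, 33 of the 35 members differed between the 4 WT regions (adjusted p under 0.05), against 59.3% of all 16995 genes tested. The exceptions were Grin1 (adjusted p = 0.625) and Grik1 (adjusted p = 0.418) in this edgeR test. The ratio of the highest to the lowest WT region had a median of 3.7 over the members, from 1.12 for Grin1 to 48.9 for Neto1, and reached 10 or more for 9 members. Cerebellum was the lowest region for 21 of the 35 members. The highest WT region was hippocampus for 12 members, olfactory bulb for 10, cortex for 7 and cerebellum for 6. In bulk tissue, fewer cells that express a gene and less of its RNA per cell cannot be told apart.

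**Figure D1:**
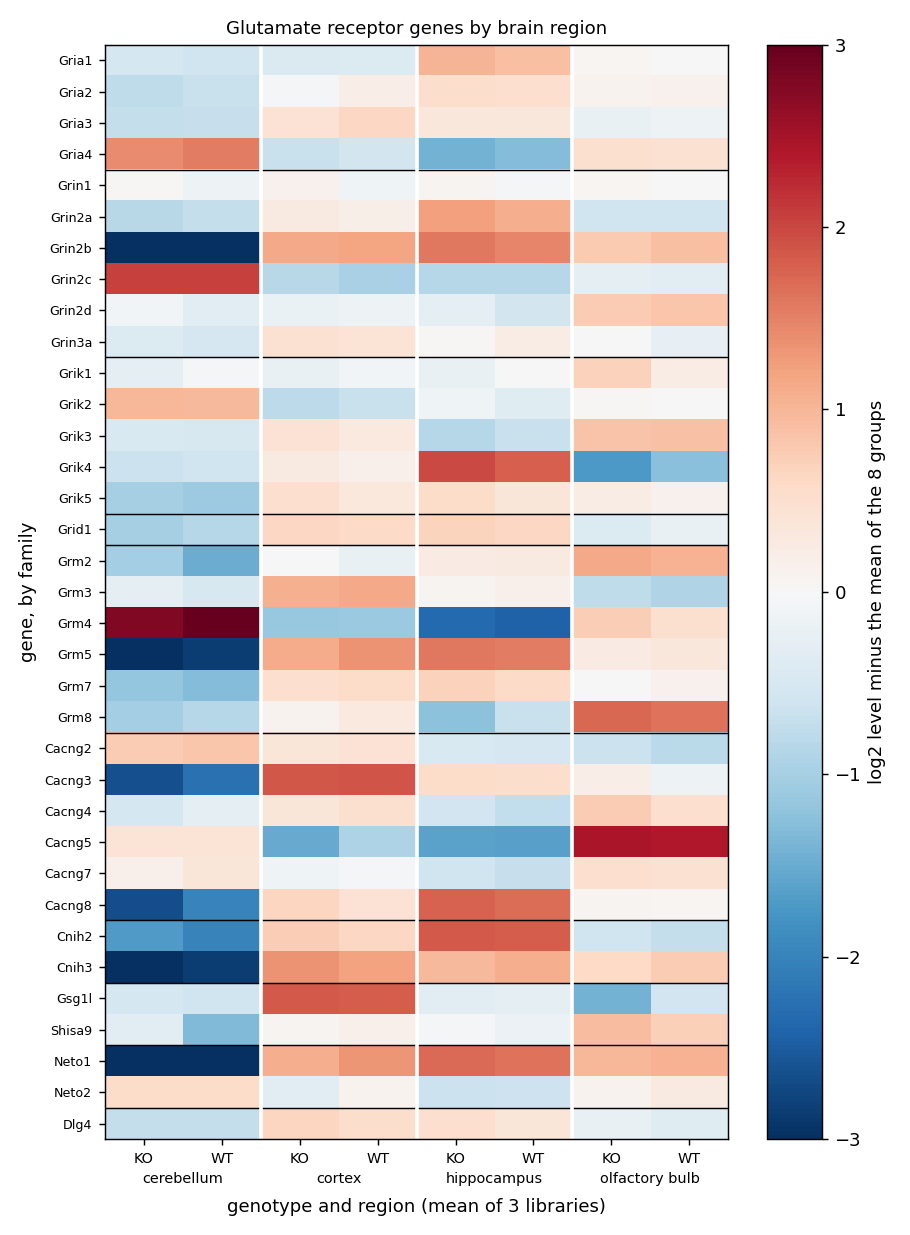
Level of each of the 35 genes (down, by family) in KO and WT of each region (across), as log2 of the mean CPM per kb of 3 libraries minus the mean over the 8 groups, with colours clipped at -3 and 3. KO and WT columns of a region look alike, cerebellum is the darkest blue for Grin2b, Grm5, Cnih3 and Neto1, and the strongest reds are Grm4 and Grin2c in cerebellum and Cacng5 in olfactory bulb.

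Each region was set against the mean of the other 3 regions with the same edgeR test, in WT libraries. In cerebellum 8 members were higher and 25 lower, against 22.7% and 24.1% of all genes tested. In cortex 19 were higher and 6 lower, against 19.0% and 14.5% of all genes. In hippocampus 17 were higher and 12 lower, against 15.3% and 10.6%. In olfactory bulb 14 were higher and 8 lower, against 18.4% and 17.5%. Without olfactory bulb WT replicate 2 the members lower there numbered 5. The contrasts below are log2 differences ± SE of a region from the mean of the other 3, and each one named as higher or lower passed this test in the genotype it is given for.

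Of the AMPA receptor genes, Gria1 led the hippocampus. Its level was 248, 229 and 245 CPM per kb in KO hippocampus, against 200.3, 270 and 195 CPM per kb in WT hippocampus, and all 18 libraries of the other 3 regions lay between 75.1 and 132 CPM per kb. Gria1 was higher in hippocampus by 1.32 ± 0.07 in KO and by 1.2 ± 0.10 in WT. The hippocampal libraries of both genotypes stood above every other library, and the KO and WT hippocampal ranges overlapped.

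Gria4, whose subunit gives fast AMPA receptors, had the opposite distribution. Its level was 78.3, 91.1 and 94.0 CPM per kb in KO cerebellum and 93.1, 96.7 and 95.2 CPM per kb in WT cerebellum. In hippocampus it was 11.2, 14.3 and 11.2 CPM per kb in KO and 12.1, 12.5 and 15.4 CPM per kb in WT. Gria4 was higher in cerebellum by 2.0 ± 0.10 and lower in hippocampus by -1.80 ± 0.12 in WT, with no overlap between cerebellum and any other region.

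Gria2, whose edited subunit makes AMPA receptors impermeable to calcium, and Gria3 varied less. Gria2 averaged 26.5 ± 1.96 CPM per kb in KO cerebellum and 28.6 ± 2.84 in WT cerebellum (SD, n = 3 each), the lowest of its regions, and 64.8 ± 2.47 in KO hippocampus and 63.7 ± 6.75 in WT hippocampus, the highest. Gria3 peaked in cortex, at 30.5 ± 3.58 CPM per kb in KO and 34.7 ± 8.05 in WT. In WT both genes were lower in cerebellum, Gria2 by -0.94 ± 0.13 and Gria3 by -0.97 ± 0.13.

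The summed AMPA receptor level was therefore made up differently in each region. Gria4 held the largest share of the sum in cerebellum, 41.6 ± 3.76% in KO and 43.8 ± 0.502% in WT (SD, n = 3 each), and its share in hippocampus was 3.54 ± 0.586% in KO and 4.15 ± 0.959% in WT. Gria1 led elsewhere, with 69.5 ± 1.55% in KO hippocampus and 67.5 ± 2.44% in WT hippocampus. Without division by exon length the longer Gria2 led in cortex and olfactory bulb of both genotypes, so a lead of Gria1 over Gria2 there depends on the scale.

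Among NMDA receptor genes, Grin1 encodes the subunit that every NMDA receptor contains, and its level was nearly flat. Group means ran from 48.4 to 58.7 CPM per kb over all 8 groups, with SDs of 3.20 to 9.49. No region differed from the mean of the others in WT or in KO. An antisense gene, Grin1os, overlaps the exons of Grin1, and whether the counting used strand is not given in the sources used here, so reads from that gene cannot be told apart from Grin1 reads.

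Grin2c and Grin2b, which encode the variable GluN2 subunits, were near mirror images. Grin2c had 70.0, 73.6 and 66.4 CPM per kb in KO cerebellum and 59.8, 70.8 and 78.3 CPM per kb in WT cerebellum, and between 6.94 and 15.8 CPM per kb in the 18 other libraries. Grin2b had 0.447, 1.09 and 0.944 CPM per kb in KO cerebellum and 1.38, 1.01 and 1.01 CPM per kb in WT cerebellum, and between 18.1 and 36.9 CPM per kb in the other 18 libraries. Cerebellum did not overlap any other region for either gene.

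Grin2c was higher in cerebellum by 2.72 ± 0.08 in KO and by 2.76 ± 0.14 in WT. Grin2b was lower there by -4.88 ± 0.21 in KO and by -4.47 ± 0.17 in WT. Both overlap small genes on the opposite strand (Gm25837 for Grin2c, Gm14329 and Gm22892 for Grin2b), so these values are uncertain to that extent. The lowest cerebellar Grin2b value, in KO replicate 1, came from 76 counts in one of the 3 shallow libraries.

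The remaining NMDA receptor genes each had another leading region. Grin2a, the GluN2A subunit of mature forebrain synapses, was highest in hippocampus, at 23.2 ± 1.34 CPM per kb in KO and 21.2 ± 2.82 in WT, and higher there by 1.44 ± 0.09 in WT. Grin2d, the subunit of the slowest NMDA receptors, was highest in olfactory bulb, at 5.51 ± 0.346 CPM per kb in KO and 5.86 ± 0.471 in WT, and higher there by 1.2 ± 0.14. Grin3a, whose subunit lowers calcium flux, was highest in cortex, at 7.45 ± 0.564 CPM per kb in KO and 7.31 ± 1.10 in WT.

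In the NMDA receptor sum per kb of exon, Grin2c held 50.5 ± 3.62% in KO cerebellum and 52.8 ± 1.29% in WT cerebellum, and Grin1 led in the other 3 regions. Grin2b held 0.608 ± 0.272% of the sum in KO cerebellum and 0.877 ± 0.272% in WT cerebellum, against 25.6 ± 0.849% in KO hippocampus and 25.1 ± 1.09% in WT hippocampus. With the length of the longest transcript in place of all exons, Grin1 and not Grin2c led in cerebellum, with 57.8% in KO and 55.0% in WT. Without division by exon length Grin2b led in cortex (39.4% in KO and 42.8% in WT) and in hippocampus (43.1% in KO and 42.5% in WT). The leads of Grin2c in cerebellum and of Grin1 in cortex and hippocampus therefore depend on the length used, while the difference of Grin2c between regions does not involve a length.

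**Figure D2:**
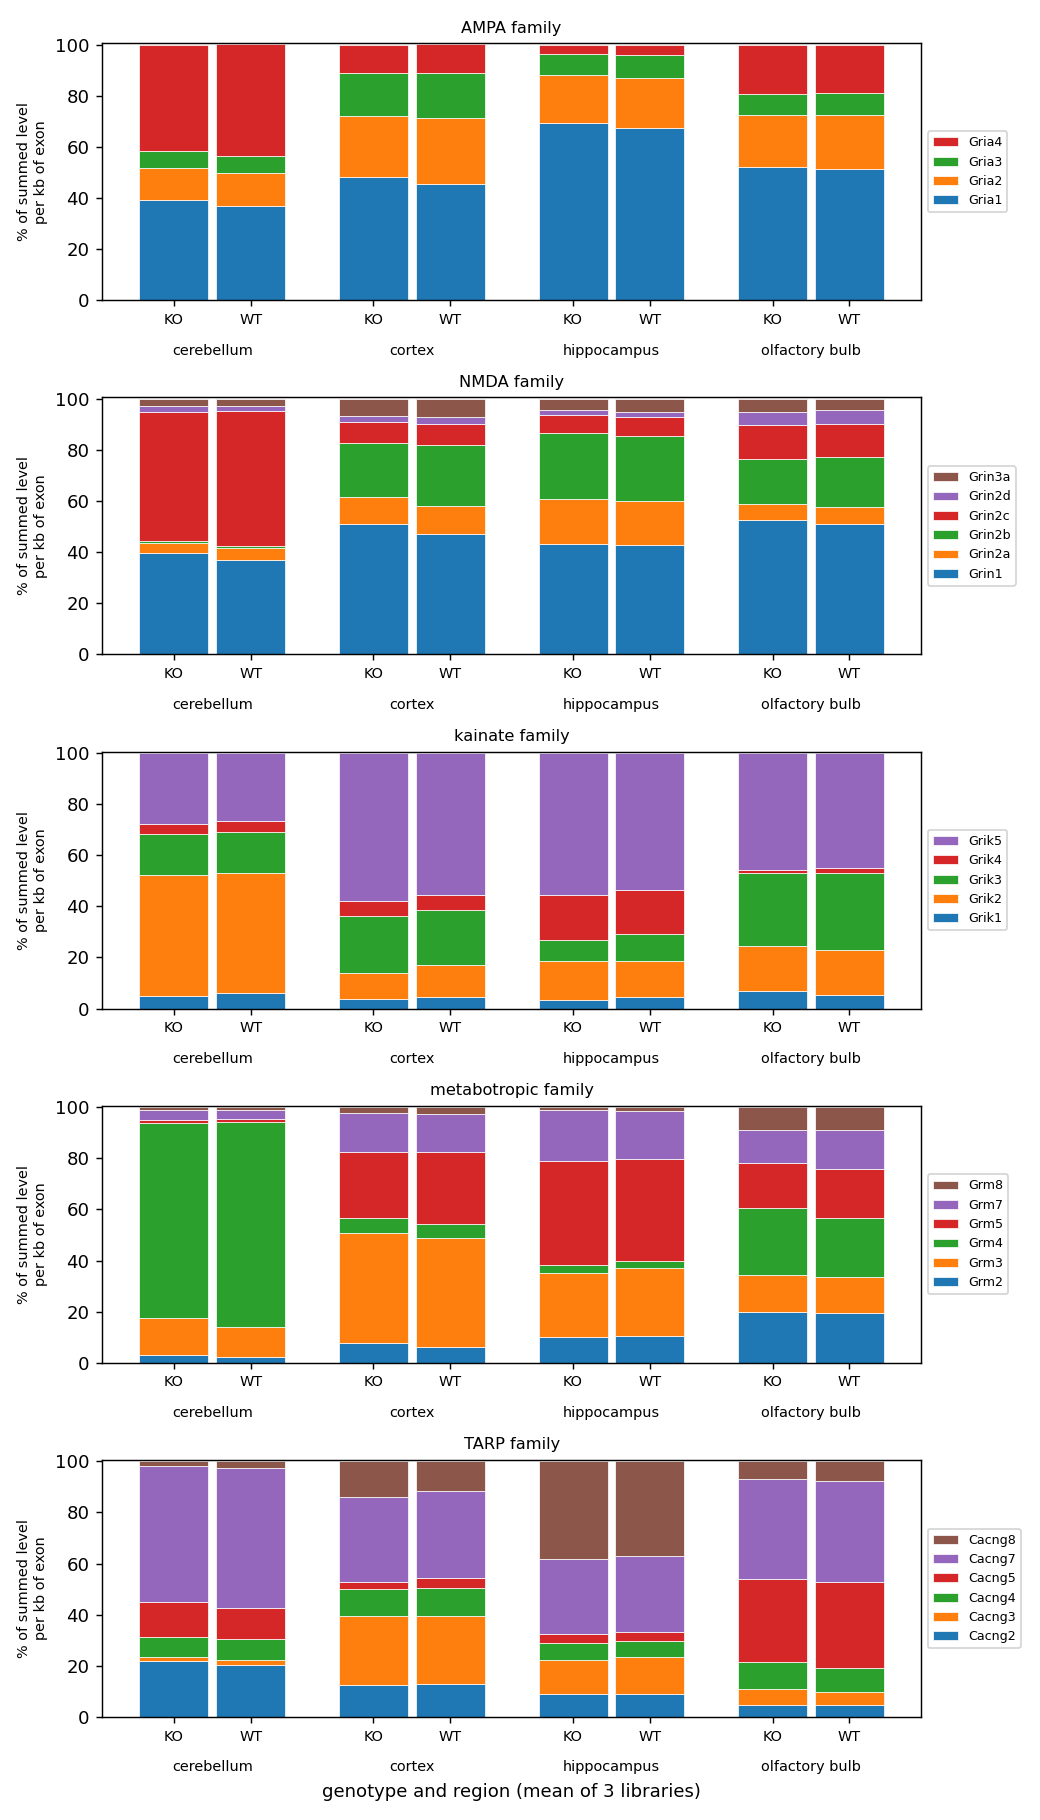
Percent of the summed level per kb of exon that each gene takes within its family (bars, mean of 3 libraries) in KO and WT of each region, for the AMPA, NMDA, kainate, metabotropic and TARP families. From cerebellum to the other 3 regions the largest segment changes from Gria4 to Gria1, Grin2c to Grin1 and Grik2 to Grik5. Grm4 gives way to Grm3 in cortex and to Grm5 in hippocampus, and stays largest in olfactory bulb. KO and WT bars of a region are alike.

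Kainate receptors pair low-affinity subunits (Grik1, Grik2, Grik3), which form channels alone, with the high-affinity subunits Grik4 and Grik5. Grik2 was a cerebellar gene here, with 34.6, 28.9 and 28.2 CPM per kb in KO cerebellum, 24.2, 33.6 and 32.1 CPM per kb in WT cerebellum, and no value above 17.4 CPM per kb elsewhere. It was higher in cerebellum by 1.29 ± 0.14 in KO and by 1.32 ± 0.15 in WT. In cortex replicate 2, the replicate with the largest share of reads in no gene, had the highest Grik2 of each genotype (12.3 CPM per kb in KO and 13.1 in WT, against 6.60 to 9.10 in the other 4 cortical libraries). Whether that share bears on the Grik2 level was not tested.

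Grik4 was a hippocampal gene. Its level was 17.4, 16 and 16 CPM per kb in KO hippocampus, against 12.7, 17.5 and 13.6 CPM per kb in WT hippocampus. In olfactory bulb, its lowest region, it was 1.25, 1.21 and 1.37 CPM per kb in KO and 2.38, 1.42 and 1.49 CPM per kb in WT. Grik4 was higher in hippocampus by 2.67 ± 0.09 in KO and by 2.35 ± 0.14 in WT, with no overlap with any other region.

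Grik3 was highest in olfactory bulb, at 25.6 ± 2.42 CPM per kb in KO and 26.2 ± 0.272 in WT, and higher there by 1.2 ± 0.12. Grik5 had the same leading pair, hippocampus and cortex, as most forebrain members, at 51.7 ± 1.08 CPM per kb in KO hippocampus and 45.5 ± 8.16 in WT hippocampus, and was lower in cerebellum by -1.35 ± 0.13. Grik1 did not differ between WT regions, and in KO it was higher in olfactory bulb by 0.95 ± 0.17. Grik2 led the kainate receptor sum in cerebellum, with 47.3 ± 3.01% in KO and 47 ± 3.46% in WT, and Grik5 led in the other 3 regions, with 58.0 ± 2.65% in KO cortex and 55.4 ± 5.11% in WT cortex. Without division by exon length Grik3 led in olfactory bulb, with 33.0% in KO and 34.6% in WT. Grid1, a delta receptor that binds cerebellins rather than passing fast current, was lower in cerebellum, at 5.16 ± 0.375 CPM per kb in KO and 5.68 ± 0.479 in WT, by -1.17 ± 0.12.

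Among metabotropic receptors Grm4, the presynaptic receptor of cerebellar granule cell terminals, had the widest range over WT regions after Neto1. Its level was 119, 117 and 109.7 CPM per kb in KO cerebellum, against 128, 126 and 148 CPM per kb in WT cerebellum. In hippocampus it was 2.21, 4.38 and 3.40 CPM per kb in KO and 2.88, 3.06 and 3.51 CPM per kb in WT. Grm4 was higher in cerebellum by 3.68 ± 0.13 in KO and by 4.01 ± 0.10 in WT, and lower in hippocampus by -3.12 ± 0.18 in KO and by -3.24 ± 0.14 in WT.

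Grm5, the postsynaptic receptor coupled to Gq, was a forebrain gene. It had 2.34, 1.28 and 1.12 CPM per kb in KO cerebellum and 4.10, 1.2 and 1.22 CPM per kb in WT cerebellum, where replicate 1 of each genotype was the highest. In hippocampus it had 45.7, 51.0 and 42.2 CPM per kb in KO and 40.9, 47.8 and 45.6 CPM per kb in WT. Grm5 was lower in cerebellum by -4.34 ± 0.21 in KO and by -3.88 ± 0.37 in WT, with no overlap with another region.

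Grm3, a receptor that astrocytes also express, was highest in cortex, at 56.4, 57.9 and 55.5 CPM per kb in KO and 53.4, 60.6 and 62.6 CPM per kb in WT. It was higher there by 1.54 ± 0.08 in WT, above all other libraries. Grm2 and Grm8, which lower transmitter release, were highest in olfactory bulb: Grm2 at 21.4 ± 1.47 CPM per kb in KO and 20.1 ± 1.35 in WT, Grm8 at 9.57 ± 1.47 CPM per kb in KO and 9.08 ± 0.947 in WT. The WT contrasts for olfactory bulb were 1.54 ± 0.12 for Grm2 and 2.07 ± 0.14 for Grm8. Grm7, a presynaptic receptor of low glutamate affinity, was lower in cerebellum by -1.72 ± 0.17 and higher in hippocampus (0.77 ± 0.14) and cortex (0.74 ± 0.14). An opposite-strand gene, Gm20387, overlaps its exons.

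The leading metabotropic receptor differed between cerebellum, cortex and hippocampus. Grm4 held 76.3 ± 4.14% of the sum in KO cerebellum and 80.4 ± 2.13% in WT cerebellum. Grm3 led in cortex, with 43.3 ± 1.98% in KO and 42.5 ± 2.92% in WT, and Grm5 in hippocampus, with 40.7 ± 2.24% in KO and 39.8 ± 2.10% in WT. In olfactory bulb the sum was spread most evenly, and Grm4 again had the largest part, 26.2 ± 1.28% in KO and 23.1 ± 0.859% in WT. Without division by exon length Grm5 led in cortex and in olfactory bulb.

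**Figure D3:**
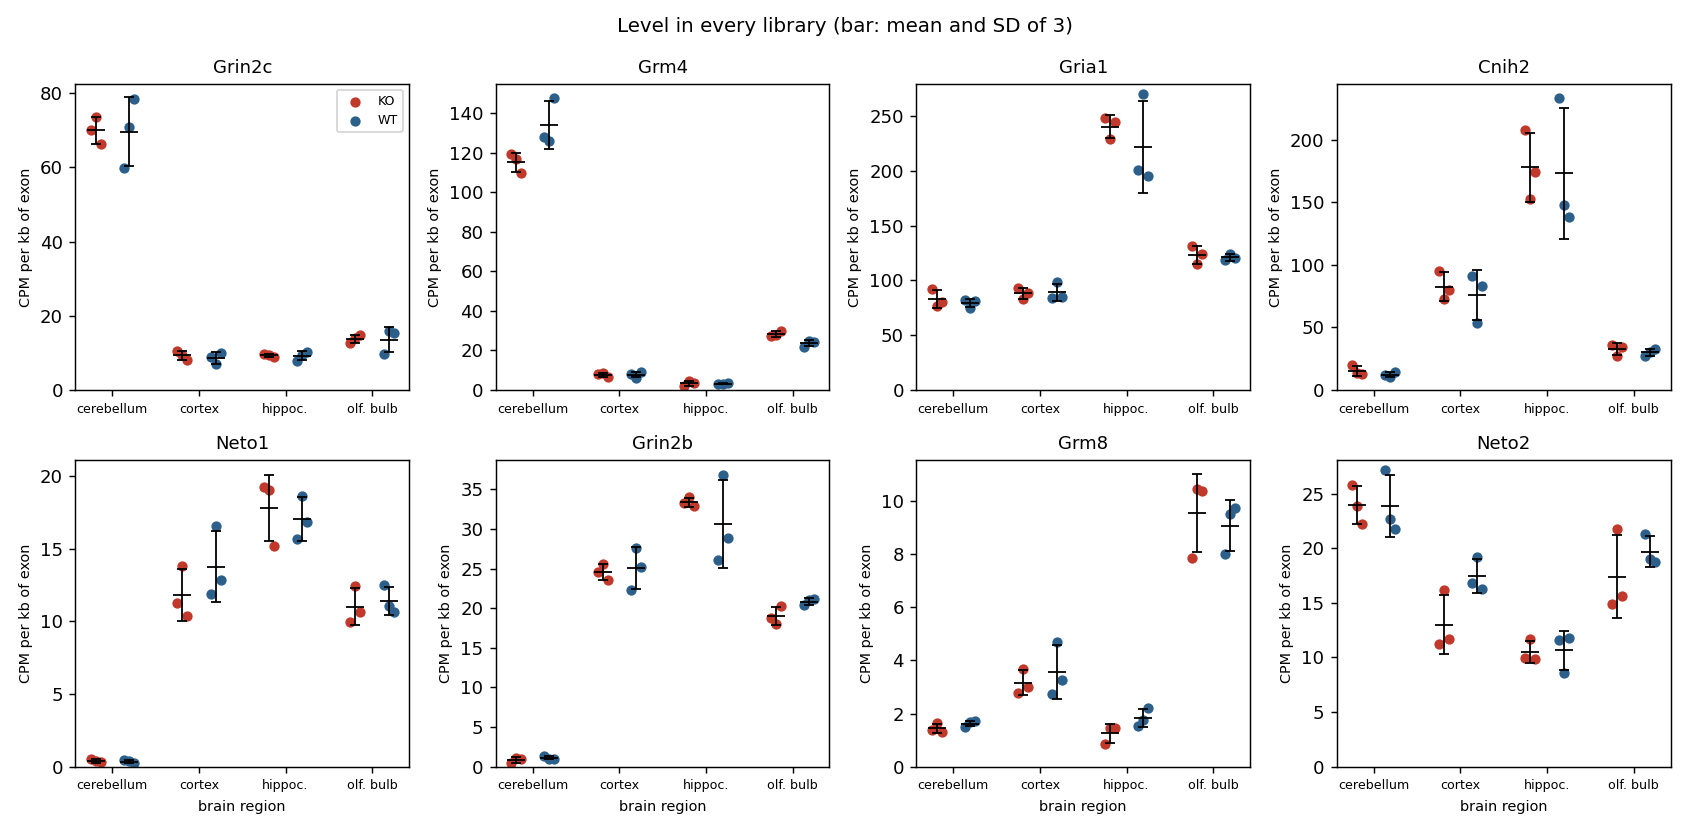
Level (CPM per kb of exon) of 8 genes in each of the 24 libraries by region, with KO in red left of WT in blue and bars for the mean and SD of 3 libraries. Grin2c and Grm4 are highest in cerebellum, Gria1 and Cnih2 in hippocampus, Neto1 and Grin2b are near 0 in cerebellum, Grm8 is highest in olfactory bulb, and KO and WT points of a region lie close to each other.

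The auxiliary subunits were as regional as the receptors. Among TARPs, Cacng2 (stargazin, which brings AMPA receptors to the surface of cerebellar granule cells) and Cacng3 were opposite in cerebellum. Cacng2 had 22.1, 20.1 and 19.7 CPM per kb in KO cerebellum and 24.1, 19.0 and 22 CPM per kb in WT cerebellum, and was higher there by 1.0 ± 0.11 in KO and by 1.13 ± 0.10 in WT. An opposite-strand gene, A730060N03Rik, overlaps its exons. Cacng3 had 1.79, 1.28 and 1.39 CPM per kb in KO cerebellum and 1.93, 1.83 and 2.09 CPM per kb in WT cerebellum, against 41.4, 28.5 and 31.2 CPM per kb in KO cortex and 35.4, 35.5 and 31.8 CPM per kb in WT cortex. In WT it was lower in cerebellum by -3.01 ± 0.15 and higher in cortex by 2.5 ± 0.11.

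Cacng8 was the hippocampal TARP. It had 37.7, 36.9 and 39.3 CPM per kb in KO hippocampus and 33.6, 39.8 and 32.3 CPM per kb in WT hippocampus, above every other library, and was higher there by 2.39 ± 0.18 in KO and by 2.14 ± 0.14 in WT. Cacng5 was the bulb TARP, with 47.3, 58.7 and 54.4 CPM per kb in KO olfactory bulb, 56.0, 46.6 and 52.6 CPM per kb in WT olfactory bulb, and at most 14.2 CPM per kb elsewhere. It was higher there by 3.37 ± 0.10 in KO and by 3.15 ± 0.15 in WT.

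Cacng7 was broadly expressed, at 29.7 ± 3.78 to 64.4 ± 6.05 CPM per kb in KO regions and 28.1 ± 4.36 to 61.7 ± 4.51 in WT regions. It led the TARP sum in cerebellum (53.3 ± 3.39% in KO and 54.8 ± 0.589% in WT), cortex and olfactory bulb, and Cacng8 led in hippocampus (38.0 ± 2.24% in KO and 37.2 ± 2.22% in WT). Without division by exon length Cacng5 led in olfactory bulb, with 39.2% in KO and 40.5% in WT. Cacng4 was lower in hippocampus by -1.0 ± 0.11 and higher in olfactory bulb by 0.70 ± 0.10 in WT.

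The cornichons Cnih2 and Cnih3 slow AMPA receptor deactivation. Cnih2 had 208, 153 and 174 CPM per kb in KO hippocampus and 234, 148 and 138 CPM per kb in WT hippocampus, against 19.6, 13.3 and 12.5 CPM per kb in KO cerebellum and 11.7, 10.8 and 14.7 CPM per kb in WT cerebellum. It was higher in hippocampus by 2.38 ± 0.13 in KO and by 2.48 ± 0.16 in WT, above every other library, and lower in cerebellum by -2.57 ± 0.21 in WT. The exons of Cnih2 overlap Yif1a on the opposite strand. Cnih3 was also lower in cerebellum, by -3.77 ± 0.36, where WT replicate 1 stood apart at 2.64 CPM per kb, against 0.546 and 0.799 CPM per kb in the other WT libraries and 0.840 to 1.49 CPM per kb in KO.

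Neto1 and Neto2, which bind kainate receptors and Neto1 also NMDA receptors, divided by region. Neto1 had 0.542, 0.362 and 0.291 CPM per kb in KO cerebellum and 0.438, 0.360 and 0.248 CPM per kb in WT cerebellum, against 19.2, 19.1 and 15.2 CPM per kb in KO hippocampus and 15.7, 18.6 and 16.8 CPM per kb in WT hippocampus. It was lower in cerebellum by -5.14 ± 0.20 in KO and by -5.28 ± 0.19 in WT, the largest regional contrast among the 35 genes in either genotype. Neto2 went the other way, higher in cerebellum by 0.64 ± 0.10 and lower in hippocampus by -0.95 ± 0.11 in WT.

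Gsg1l, which slows recovery of AMPA receptors from desensitisation, was a cortical gene, at 23.8, 17.5 and 17.0 CPM per kb in KO cortex and 21.1, 16.6 and 19.5 CPM per kb in WT cortex, and at most 6.44 CPM per kb elsewhere. It was higher in cortex by 2.54 ± 0.25 in KO and by 2.30 ± 0.21 in WT. Shisa9 was higher in olfactory bulb by 1.2 ± 0.12 in WT, at 8.87 ± 1.90 CPM per kb in KO and 7.73 ± 0.594 in WT. Dlg4 followed the forebrain pattern, at 53.6 ± 9.24 CPM per kb in KO cortex and 49.2 ± 10.7 in WT cortex, and was lower in cerebellum, at 21 ± 1.59 in KO and 20.8 ± 1.67 in WT, by -0.89 ± 0.13.

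The regional pattern was then looked at in the KO libraries, which the WT contrasts did not use. In KO, 33 of the 35 members differed between regions in the same edgeR test, against 48.2% of 16764 genes tested, and the exceptions were Grin1 (adjusted p = 0.971) and Shisa9 (adjusted p = 0.0834). In KO cerebellum 7 members were higher and 22 lower, against 18.5% and 21.5% of genes. In KO cortex 20 were higher and 6 lower, against 16.4% and 10.7%, in KO hippocampus 16 and 10, against 12.1% and 7.86%, and in KO olfactory bulb 17 and 9, against 14.7% and 13.2%.

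Of the members called in WT, those with the same sign in KO numbered 33 of 33 for cerebellum, 24 of 25 for cortex, 29 of 29 for hippocampus and 22 of 22 for olfactory bulb, and 29, 24, 26 and 21 of them were also called in KO. The cortical exception was Shisa9, with 0.40 ± 0.13 in WT and -0.08 ± 0.35 in KO. The highest region was the same in both genotypes for 34 members, the lowest for 31, and the order of all 4 regions for 28. The matching counts over all genes were not made, so the repeat in KO cannot be read as particular to the members. In cerebellum the Shisa9 level was 7.52, 1.56 and 1.91 CPM per kb in KO cerebellum, against 1.97, 1.68 and 1.98 CPM per kb in WT cerebellum, so KO replicate 1, one of the libraries below 8 M counts, stood far above the others.

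Between KO and WT within a region, no receptor or auxiliary gene passed the test. In edgeR's quasi-likelihood test with Benjamini-Hochberg adjustment, 0 of the 35 members had an adjusted p under 0.05 in cerebellum, cortex, hippocampus or olfactory bulb, and the smallest adjusted p of any member was 0.858, in cortex. Over all genes the test called 0.00644% of 15536 in cerebellum, 0.00634% of 15777 in cortex, 0.00620% of 16119 in hippocampus and 0.0253% of 15831 in olfactory bulb, Cdr1as itself among them in each region. DESeq2, run as an alternative, also called 0 of the 35 in every region. At an unadjusted p under 0.05 edgeR had 1 member in each region. In cerebellum it was lower in KO, and 0.637% of all genes were lower and 1.25% higher at that p. It was lower in KO in cortex (3.02% of genes lower, 2.62% higher) and in hippocampus (2.06% lower, 1.95% higher), and higher in KO in olfactory bulb (1.52% higher, 0.910% lower).

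**Figure D4:**
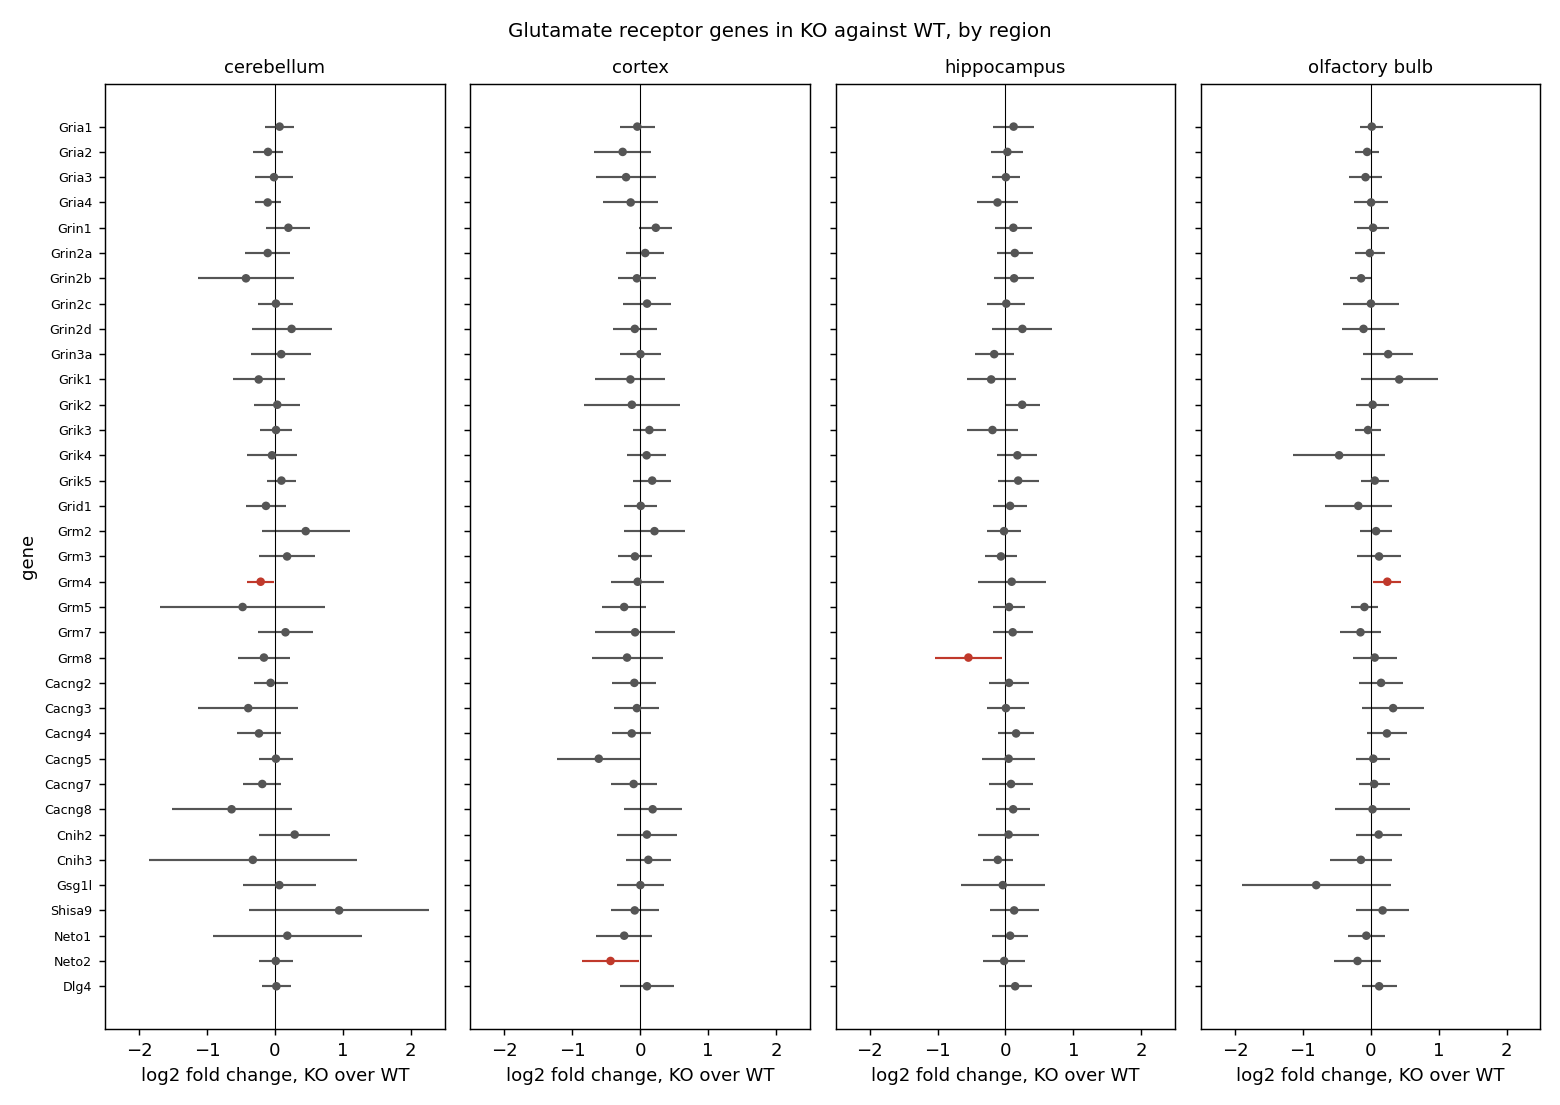
Log2 fold change of KO over WT with its 95% interval (edgeR) for the 35 genes in each region, with genes at an unadjusted p under 0.05 in red. Most points lie near 0, and the red ones are Grm4 in cerebellum (-0.21) and in olfactory bulb (0.24), Neto2 in cortex (-0.44) and Grm8 in hippocampus (-0.54). The widest intervals include those of Shisa9 and Cnih3 in cerebellum, where 1 library stood apart for each gene (KO replicate 1 for Shisa9, WT replicate 1 for Cnih3).

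How large a difference the data leave room for can be read from the intervals. The 95% interval of the log2 fold change lay within -1 and 1 for 27 members in cerebellum, 34 in cortex, 34 in hippocampus and 33 in olfactory bulb, against 64.9%, 77.5%, 83.9% and 62.3% of all genes tested. The members with the widest intervals were low in the region concerned, such as Cnih3, Grm5, Cacng8 and Neto1 in cerebellum. Fold changes were above 0 for 18, 14, 25 and 21 of the 35 members in cerebellum, cortex, hippocampus and olfactory bulb, against 43.1%, 50.1%, 46.2% and 47.8% of genes, with medians of 0.02, -0.05, 0.05 and 0.03.

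Grm4 had the smallest unadjusted p in both cerebellum and olfactory bulb, with opposite signs. In cerebellum, with the levels given above, its fold change was -0.21 (95% interval -0.41 to -0.00, adjusted p = 0.949 by edgeR), and all 3 KO libraries lay below all 3 WT libraries. In olfactory bulb its level was 27.2, 27.6 and 29.8 CPM per kb in KO, against 22, 24.6 and 24.3 CPM per kb in WT. There all 3 KO libraries lay above the WT libraries, with a fold change of 0.24 (95% interval 0.04 to 0.45, adjusted p = 0.992 by edgeR). Neither difference passed the adjusted threshold, and the difference between regions did not pass its own test (adjusted p = 1 by edgeR's quasi-likelihood test on all 24 libraries).

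In cortex the smallest p was that of Neto2. Its level was 11.2, 16.2 and 11.7 CPM per kb in KO, against 16.9, 19.2 and 16.3 CPM per kb in WT. The KO libraries were the lower ones, with KO replicate 2 just under the lowest WT library on this scale and within the WT range when cortex was scaled alone. The fold change was -0.44 (95% interval -0.85 to -0.02, adjusted p = 0.858 by edgeR). With the share of reads in no gene as a covariate, chosen after seeing the data, its adjusted p was 0.0945, the smallest for any member in any fit tried.

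Cacng5 and Grin1 followed in cortex. Cacng5, low in this region, had 3.10, 3.60 and 3.54 CPM per kb in KO, against 6.75, 3.02 and 5.58 CPM per kb in WT, with overlap, and a fold change of -0.61 (95% interval -1.22 to 0.00). Of the 8 markers of olfactory bulb neurons, 7 could be tested in cortex, and all 7 had fold changes below 0. By edgeR 6 were lower at an unadjusted p under 0.05, with all KO libraries below the WT libraries. Of all genes tested in cortex, 50.1% had fold changes above 0 and 3.02% were lower at that p. All KO libraries lay below the WT libraries for 6.90% of them. Summed over the 8 markers, KO cortex had 19.5 to 21.1 CPM and WT cortex 32.5 to 60.6 CPM, none of the 8 was at 0 in all libraries of either group, and the part of this difference in the Cacng5 values was not tested. Grin1 had 64.7, 55.2 and 56.1 CPM per kb in KO, against 50.04, 44.8 and 52.9 CPM per kb in WT. All KO libraries lay above the WT libraries for Grin1, with a fold change of 0.23 (95% interval -0.01 to 0.48). Grm5 was 32.8, 37.5 and 31.3 CPM per kb in KO cortex, against 40.7, 42.7 and 34.6 CPM per kb in WT cortex, with overlap.

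In hippocampus Grm8 had the smallest p. Its level was 0.856, 1.46 and 1.44 CPM per kb in KO, against 1.55, 1.75 and 2.22 CPM per kb in WT, and all KO libraries lay below the WT libraries. The fold change was -0.54 (95% interval -1.04 to -0.05, adjusted p = 0.953 by edgeR), in the region where Grm8 is near its lowest level. Grik2 had 14.5, 14.5 and 13 CPM per kb in KO hippocampus, against 10.2, 12.6 and 12.8 CPM per kb in WT hippocampus, all KO libraries being above the WT libraries, with a fold change of 0.25 (95% interval -0.01 to 0.50). Grik5 and Grik4, with the hippocampal levels given above, had fold changes of 0.19 (95% interval -0.11 to 0.49) and 0.18 (95% interval -0.12 to 0.47), and their WT libraries spread over the KO range. Summed over 8 choroid plexus markers, KO hippocampus had 177 to 216 CPM and WT hippocampus 164 to 3404 CPM, and the part of this spread in the hippocampal values was not tested.

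In olfactory bulb Grin2b, Cacng4 and Grik1 came next after Grm4. Grin2b had 18.8, 18.1 and 20.3 CPM per kb in KO, against 20.4, 21 and 21.1 CPM per kb in WT, all KO libraries being lower, with a fold change of -0.14 (95% interval -0.31 to 0.03). Cacng4 had 18.5, 16.1 and 16.7 CPM per kb in KO, against 12.7, 14.6 and 15.9 CPM per kb in WT, all KO libraries being higher, with a fold change of 0.24 (95% interval -0.05 to 0.53). Grik1 had 5.20, 8.24 and 5.35 CPM per kb in KO, against 3.19, 5.73 and 4.78 CPM per kb in WT. For Grik1 the groups overlapped, the highest value was that of KO replicate 2 and the lowest that of WT replicate 1, the pair of shallow bulb libraries. Without both of them, an alternative added after seeing the data, its fold change of 0.42 was -0.02.

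In cerebellum Cacng4, Cacng8 and Shisa9 came next after Grm4. Cacng4 had 6.04, 7.78 and 7.47 CPM per kb in KO, against 8.28, 8.70 and 8.30 CPM per kb in WT, all KO libraries being lower, with a fold change of -0.23 (95% interval -0.55 to 0.08). Cacng8 had 0.934, 2.08 and 2.25 CPM per kb in KO, against 3.14, 2.32 and 2.89 CPM per kb in WT, again with all KO libraries lower, on 15 to 225 counts per library, with a fold change of -0.64 (95% interval -1.52 to 0.25). Shisa9, with the levels given above, had the highest fold change of any member and region, 0.95 (95% interval -0.37 to 2.27), and without KO replicate 1 it was -0.11. At the other end, Gsg1l in olfactory bulb had -0.80 (95% interval -1.90 to 0.29), with 3.10, 0.582 and 2.39 CPM per kb in KO and 5.05, 2.67 and 3.20 CPM per kb in WT, where the lowest value came from 13 counts in the shallow KO replicate 2.

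Members whose KO libraries all lay on one side of the WT libraries were counted in CPM scaled within each region. Cerebellum had 1 above (Grm2) and 4 below (Grm4, Cacng3, Cacng4, Cacng8), against 4.56% and 6.54% of all genes. Cortex had 2 above (Grin1, Grik3) and 0 below, against 6.58% and 6.90%. Hippocampus had 2 above (Cacng4, Grik2) and 1 below (Grm8), against 5.23% and 4.16%. Olfactory bulb had 2 above (Grm4, Cacng4) and 2 below (Grin2b, Grik4), against 5.44% and 6.00%. These counts are near the background in most cases, and the 4 below in cerebellum include KO replicate 1, in which Cacng8 and Cacng4 were lowest. Scaled over all 24 libraries, Grik3 overlapped in cortex, with KO replicate 2 at 18.53 CPM per kb and WT replicate 3 at 18.77. On that scale Cacng4 overlapped in hippocampus, with KO replicate 3 at 6.413 CPM per kb and WT replicate 2 at 6.414.

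The 5 members with a miR-7 match in the 3′ UTR had fold changes of mixed sign in cerebellum, cortex and olfactory bulb. In hippocampus all 5 were above 0, where 25 of the 35 members (71.4%) and 46.2% of all genes were above 0. Whether a miR-7 match bears on the fold change was not tested. In cerebellum, cortex, hippocampus and olfactory bulb, in that order, the fold changes of KO over WT were -0.10, 0.08, 0.14 and -0.01 for Grin2a, -0.42, -0.05, 0.13 and -0.14 for Grin2b, and 0.04, -0.12, 0.25 and 0.03 for Grik2. Those of Cacng7 were -0.18, -0.10, 0.08 and 0.05, and those of Dlg4 0.02, 0.10, 0.14 and 0.12. None passed the adjusted threshold in edgeR.

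Averaged over regions, the comparison of KO with WT also called no member. A limma fit of each library number's mean over the 4 regions gave 0 of 35 members at an adjusted p under 0.05, against 0.0114% of 17600 genes, and 0 of 35 at an unadjusted p under 0.05, against 5.06%. Grik5 was the one member with all KO values above all WT values, at 0.14 ± 0.08 (SE), with an adjusted p of 0.908 by limma. The share of all genes that separated this way in the means was not counted, so this separation cannot be set against a background. The test for a knockout effect that differs between regions (edgeR) called 0 of 35 members, against 0.00568% of 17600 genes. At an unadjusted p under 0.05 it had 1 member, Cacng3, against 1.48% of genes, and Cacng4 fell just short of it.

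In cortex and in the mean over regions, the deviations of same-numbered KO and WT libraries correlated above 0.1 in every pair. The labels do not say that numbers pair libraries, and these comparisons were also fitted with the library number as a block. In cortex, replicate 2 of each genotype had the highest share of reads in no gene. The part of that share in these correlations was not tested. With the block 30 genes were called in cortex, against 1 without it, and 15 for the mean over regions, against 2 without it. The members called numbered 0 in both blocked fits.

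Ratios between subunits that replace one another were compared as well, since they cancel a shared change. On the log2 scale of level per kb, Grin2b to Grin2a was 1.11, 0.98 and 1.02 in KO cortex, against 1.13, 1.29 and 1.05 in WT cortex, and -3.30, -2.5 and -2.73 in KO cerebellum, against -1.99, -2.66 and -2.68 in WT cerebellum. Gria4 to Gria1 was -0.23, 0.25 and 0.23 in KO cerebellum, against 0.18, 0.36 and 0.23 in WT cerebellum, and averaged -4.31 ± 0.26 in KO hippocampus and -4.05 ± 0.38 in WT hippocampus. The 4 ratios (Grin2b to Grin2a, Gria1 to Gria2, Gria4 to Gria1, Cacng3 to Cacng2) in 4 regions gave 16 comparisons, in all of which KO and WT libraries overlapped. No exact two-sided permutation p was below 0.2, where 0.1 is the smallest that 3 against 3 libraries allow, and the smallest adjusted over the 16 was 0.8.

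The summed level of a family was also compared by description, with no test. The AMPA sum was 209.7, 210.9 and 212 CPM per kb in KO cerebellum, against 216, 219 and 217 CPM per kb in WT cerebellum. This small gap depends on the scale. In CPM not divided by length and scaled within cerebellum, the ranges met, at 1620 to 1650 in KO and 1650 to 1740 in WT. In hippocampus the AMPA sum averaged 346 ± 7.96 CPM per kb in KO and 327 ± 49.2 in WT (SD, n = 3 each), with overlap. The sums of the NMDA and metabotropic receptors overlapped between genotypes in every region. The NMDA sum per kb of all exons had its highest mean in cerebellum, at 139 ± 11.5 CPM per kb in KO and 132 ± 14.6 in WT, and overlapped that in hippocampus, at 131 ± 2.24 CPM per kb in KO and 122 ± 17.0 in WT. In CPM not divided by length, scaled within each region, the order of these regions was the other way round: the NMDA sum was 1010 to 1210 CPM in KO cerebellum and 917 to 1120 CPM in WT cerebellum, and 1850 to 1920 CPM in KO hippocampus and 1500 to 2040 CPM in WT hippocampus. The cornichon sum was the most regional, at 197 ± 27.7 in KO hippocampus and 194 ± 53.1 in WT hippocampus, against 16.2 ± 4.26 in KO cerebellum and 13.7 ± 2.172 in WT cerebellum.

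Other genes of glutamate signalling were taken from lists outside the 35. Between KO and WT, none of the receptor and auxiliary genes outside the members, the scaffold and trafficking genes, the transport and metabolism genes or the RNA editing and splicing regulators passed the adjusted threshold in edgeR in any region, and list medians lay between -0.11 and 0.08. Immediate early genes, which neurons switch on with activity, had many low p-values, in a list chosen with earlier results of these data known. At an unadjusted p under 0.05 in edgeR, 10 of 18 were higher in KO cerebellum and 17 of 20 in KO cortex. In KO hippocampus 13 of 20 were higher, and in KO olfactory bulb 19 of 20. Of all genes, 1.25%, 2.62%, 1.95% and 1.52% were higher in KO, in that order of regions. In olfactory bulb 3 passed the adjusted threshold in edgeR, against 0.0253% of all genes. Fosb, for instance, averaged 106.4 ± 21.6 CPM in KO olfactory bulb and 23.6 ± 7.38 CPM in WT olfactory bulb (SD, n = 3 each, adjusted p = 0.0167 by edgeR). Homer1, a scaffold of Grm5 whose short form is an immediate early product, had 129 ± 14.9 CPM in KO cerebellum and 88.9 ± 19.7 CPM in WT cerebellum. In olfactory bulb Homer1 had 355 ± 70.7 CPM in KO and 246 ± 39.7 CPM in WT, with overlap. Neither Homer1 difference passed the adjusted threshold. The part of these differences in the receptor values was not tested.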

How the data were processed

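Counts per gene for 24 rRNA-depleted total RNA libraries were used as the authors deposited them, as raw read counts in 1 table per library. The submitters' processing notes name bcl2fastq 2.17.1.14, STAR 2.5.1b, HTSeq 0.6.1p1 and the mm9 build, and the labels' protocols name TRIzol, RNase H depletion and a stranded total RNA kit. Whether counting used strand is not given in the sources used here. Reads in no gene (20.3% to 62.9%), on several genes or not unique stayed out of library sizes. Replicates were not pooled.

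Gene symbols, exon lengths and 3′ UTRs came from GENCODE M21 and promoters and microRNAs from RefSeq, both of GRCm38, and no coordinate was carried between builds. Comparisons of counts used edgeR 4.0.16 (R 4.3.3) quasi-likelihood tests with TMM scaling, a minimum count of 10 (filterByExpr), robust dispersion and Benjamini-Hochberg adjustment over all genes tested: KO against WT within a region on its 6 libraries, regions against the mean of the other 3 within a genotype on its 12 libraries, and the difference of the KO effect between regions on all 24. The mean over regions was tested with limma 3.58.1, and subunit ratios (log2, pseudocount 0.5) with exact two-sided permutation tests. The call threshold was an adjusted p of 0.05. Scripts were tested on simulated counts. DESeq2 1.42.0, other filters, other lengths, the library number as a block and leaving out libraries were the alternatives. The labels do not say whether numbers pair libraries. Same-numbered KO and WT libraries were compared by the correlation of their deviations from their group means. It was 0.44, 0.59 and 0.14 in cortex and 0.19, 0.17 and 0.23 for the mean over regions. In the other regions it was at or below 0.1 for at least 1 pair. Cortex KO replicate 3 correlated more with WT replicate 1 (0.32) than with WT replicate 3. The other differently numbered cortical pairs were at or below -0.04. The regional tests had no block, although same-numbered libraries of a genotype correlated above 0.1 in all 3 pairs between WT cerebellum and cortex (0.37, 0.34 and 0.33), WT cortex and olfactory bulb (0.13, 0.2 and 0.14) and KO cortex and hippocampus (0.35, 0.29 and 0.29).

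All 35 members are accounted for. Values by library are given for members with the smallest unadjusted p, up to 4 per region, and for those that lead their family in a region; others were added after their values were seen. The members and lists were chosen with earlier results of these data known. Intervals cover the spread between libraries only, and small counts limit the precision of low genes.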

Additional observations from a re-analysis of the deposited data

Results flagged for a closer look

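In CPM scaled within a region, all 3 KO libraries lay above all 3 WT libraries in 1 region and below them in another for 2 of the 35 genes. The share of all genes with such opposite separations was not counted. Taken 1 region at a time, 6.54% of all genes lay below in cerebellum, 5.44% above in olfactory bulb and 5.23% above in hippocampus. Grm4 had a log2 fold change of 0.24 in olfactory bulb and -0.21 in cerebellum. Cacng4 had 0.24 in olfactory bulb and 0.16 in hippocampus, against -0.23 in cerebellum. Its hippocampal KO and WT libraries overlapped when scaled over all 24 libraries. The test of the difference between regions (edgeR's quasi-likelihood test on all 24 libraries) gave an adjusted p of 1 for each, so neither difference passed it.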

How the results depend on the processing

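No member was called between KO and WT in any region, in the mean over regions or in the test of a differing effect under any alternative run, those that leave out a library included. The smallest adjusted p of a member over all alternatives was 0.825 in cerebellum, 0.0945 in cortex (Neto2, with the share of reads in no gene as covariate), 0.557 in hippocampus and 0.408 in olfactory bulb.

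Counts over all genes moved more, and the cause was not tested. KO against WT called 25, 35, 17 and 15 genes with DESeq2 in cerebellum, cortex, hippocampus and olfactory bulb, 3, 7, 5 and 16 without a count filter, and 4, 6, 2 and 7 with all 24 libraries in 1 fit. A filter of 10 counts in 3 of 24 libraries gave 2 in cerebellum. With the replicate number as a block, the counts were 30 in cortex, 6 in hippocampus, 11 in olfactory bulb and 15 for the mean over regions. The block changed no member's call between KO and WT. In the regional tests every member called stayed called with it, and at most 1 was added per region and direction. Same-numbered KO and WT libraries correlated above 0.1 in every pair only in cortex and in the mean over regions. The added covariate gave 57 in cortex and 2 in hippocampus. The differing effect had 2 genes without a filter and 15 with DESeq2, and the mean over regions 78 with edgeR on 24 libraries. Without both KO libraries under 8 M counts, also added after seeing the data, KO cortex had 4608 genes higher and 3618 lower, and KO hippocampus 3400 and 2677. Without division by length, 22 of the 40 family and group pairs kept their leading member. Grik1 in olfactory bulb was -0.0171 without WT 1 and KO 2.

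Leaving out 1 library at a time gave 1 to 3 genes for KO against WT in cerebellum and in cortex, 1 to 45 in hippocampus (45 without WT replicate 2), 1 to 8 in olfactory bulb (4 with all libraries), 1 to 2 for the differing effect and 2 to 5 for the mean over regions. Genes lower in a region numbered 1471 to 3117 in WT cortex, 1181 to 2019 in WT hippocampus, 981 to 2317 in KO cortex and 797 to 1734 in KO hippocampus, and 5 to 10 members were lower in WT olfactory bulb. The KO minus WT difference ran from -0.0405 to 0.0563 for Grin2b to Grin2a in hippocampus, from -0.177 to 0.107 for Gria4 to Gria1 in olfactory bulb, and for Cacng3 to Cacng2 from -0.0365 to 0.148 in cortex, from -0.0853 to 0.0337 in hippocampus and from -0.0031 to 0.302 in olfactory bulb. Shisa9 in cerebellum ran from -0.114, without KO replicate 1, to 1.32. Among the members low in cerebellum were Neto1, Cnih3, Cacng8 and Grin2b, and the part of depth in their spread was not tested. In WT cerebellum the highest Cnih3 and Grin2b values were those of replicate 1, the library with the most counts (30.46 M).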

Other observations

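Other genes of glutamate signalling, from lists outside the 35, also differed between regions in WT libraries (edgeR quasi-likelihood test with Benjamini-Hochberg adjustment, log2 fold changes ± SE of a region over the mean of the other 3). Of all genes tested, 22.7% were higher and 24.1% lower in cerebellum, 19.0% and 14.5% in cortex, and 18.4% and 17.5% in olfactory bulb. Of 16 further receptor and auxiliary genes, 8 were higher and 3 lower in cerebellum, the second near the share of all genes, among them Olfm3, which was higher, at 3.04 ± 0.13. In olfactory bulb 3 were higher, near the share of all genes, and 10 lower, among them Frrs1l, an AMPA receptor assembly factor, which was lower, at -1.34 ± 0.10. Shisa6 was higher in hippocampus by 1.68 ± 0.10 and lower in cortex, at -2.16 ± 0.12.

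Of 33 scaffold and trafficking genes, 5 were higher and 23 lower in cerebellum, and 23 were higher and 3 lower in cortex, with the smaller count of each region below the share of all genes. Homer3 was higher in cerebellum by 3.53 ± 0.11, and Camk2a, the kinase of forebrain postsynaptic densities, was lower there, at -4.50 ± 0.18. Of 11 transport and metabolism genes, 3 were higher and 5 lower in cerebellum, the first near the share of all genes, where Slc1a6, the Purkinje cell glutamate transporter, was higher by 4.17 ± 0.12 and Slc1a2, the astrocyte transporter, lower, at -1.39 ± 0.09. Of 12 editing and splicing regulators, 5 were higher and 4 lower in cerebellum, the second not far from the share of all genes, where Khdrbs3, a splicing factor, was lower, at -2.98 ± 0.16. In olfactory bulb Adarb2 was higher by 2.31 ± 0.16.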
